A study of Mus musculus with 9 samples.

Results

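The genes described here were the proteasome genes of the mouse, taken as every row of the count table whose GENCODE M21 symbol began with Psma, Psmb, Psmc, Psmd, Psme, Psmf or Psmg followed by a digit. The rule found 50 of 23074 genes, of which 49 encode proteasome subunits, assembly chaperones, activators or an inhibitor. The other one, Psmc3ip, encodes a meiotic recombination factor (HOP2) and is not a proteasome gene. A further 4 symbols that fit the rule belong to processed pseudogenes and were not analysed here. RNA-seq was performed on decapsulated testes of 5 wild type (WT) and 4 Rfx2-/- mice at postnatal day 29 to 30 (P30), 1 library per mouse, all on a mixed background of C57BL/6, 129/Sv and FVB/N. The Rfx2-/- mice were homozygous for an allele from which exon 7, flanked by loxP sites, had been removed with a ubiquitous Cre, so that every cell of the animal lacked it, and the targeted line retained a neomycin cassette. The comparison asked how RNA of the proteasome genes differed in testes that lack this transcription factor, whose spermatids stop developing before they elongate.

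The proteasome degrades proteins tagged with ubiquitin. Its barrel-shaped 20S core is built of rings of alpha subunits, which form the gate, and rings of beta subunits, some of which cut proteins, and it is capped by a 19S regulatory particle, whose ATPases unfold substrates, or by other activators. The testis is known for its own form of the complex, in which the alpha subunit Psma8 takes the place of Psma7 and the activator Psme4 (PA200) helps to remove acetylated histones from spermatids.

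The libraries held 13574764 to 15193330 counts, apart from Rfx2-/- replicate 1, which held 28800855. Values below are counts per 1000000 counts of a library (CPM) scaled by the trimmed mean of M values (TMM), or CPM per kb of exon where genes are compared with each other. Rfx2-/- replicate 2 stood apart. Relative to the mean of the other Rfx2-/- libraries its genes with under 2 kb of exon had a median log2 deviation of 0.61. Those with over 8 kb had one of -0.93. For Rfx2-/- replicate 1, compared in the same way, the values were -0.37 and 0.53, but that comparison includes replicate 2. Most proteasome genes are short, with a median of 1561 bases of exon in the members tested against 3269 bases in all genes tested, so the main results are given with and without that library. Reads discarded for mapping to several places, or for lying over exons of different genes, bear on some members. Of the 50, 15 share over 10% of their exonic 50-base stretches with other genes, on either strand, and 23, Psma7, Psma8, Psme4 and Psmf1 among them, share none. In Psmb7, Psmc3ip and Psmg3 the sharing is with a gene whose exons overlap theirs at the same place, and not with copies elsewhere. Markers of testis cells were present throughout, with summed levels of 5588 to 6830 CPM for late spermatocytes in WT and 5459 to 7600 CPM in Rfx2-/-. The gene Rfx2 itself, counted over all its exons of which exon 7 was deleted, was at 549.3 ± 54.5 CPM in WT (SD, n = 5) and 146 ± 59.8 CPM in Rfx2-/- (SD, n = 4), or -1.91 on the log2 scale at an edgeR adjusted p of 7.81e-04.

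One proteasome gene fell strongly in Rfx2-/- testes, the inhibitor Psmf1, to 33.1% of its WT level, while the testis subunit Psma8, its paralogue Psma7 and the activator Psme4 did not pass the test. Psmc6, an ATPase of the 19S particle, Psmd10, an assembly chaperone of the same particle, and the meiotic gene Psmc3ip rose. In edgeR's quasi-likelihood test, with p adjusted over 15613 genes, 4 of the 48 members with enough counts passed an adjusted p of 0.05 (8.33%), against 10.8% of all genes tested. Of all genes 7.31% fell and 3.48% rose at this limit, and of the members 1 fell and 3 rose. At the stricter limit of an adjusted p of 0.01 and more than 2-fold, 1 of 48 members was called, Psmf1 (2.08%), against 4.51% of all genes (3.68% lower and 0.826% higher). An unadjusted p under 0.05 was found for 12 of the 48 members and for 27.6% of all genes. Fitted log2 fold changes were below 0 in 7 members and above 0 in 41, whereas 46.9% of all genes were below 0, and the members' median was 0.34 against 0.032 over all genes. The members' median was 0.13 without Rfx2-/- replicate 2. Genotypes did not overlap in CPM for 4 members (8.33%, against 15.9% of all genes), 3 of them higher (Psma4, Psmc6 and Psmd10, against 6.16%) and 1 lower (Psmf1, against 9.7%). In bulk tissue, fewer cells of a type and less RNA per cell cannot be told apart.

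**Figure D1:**
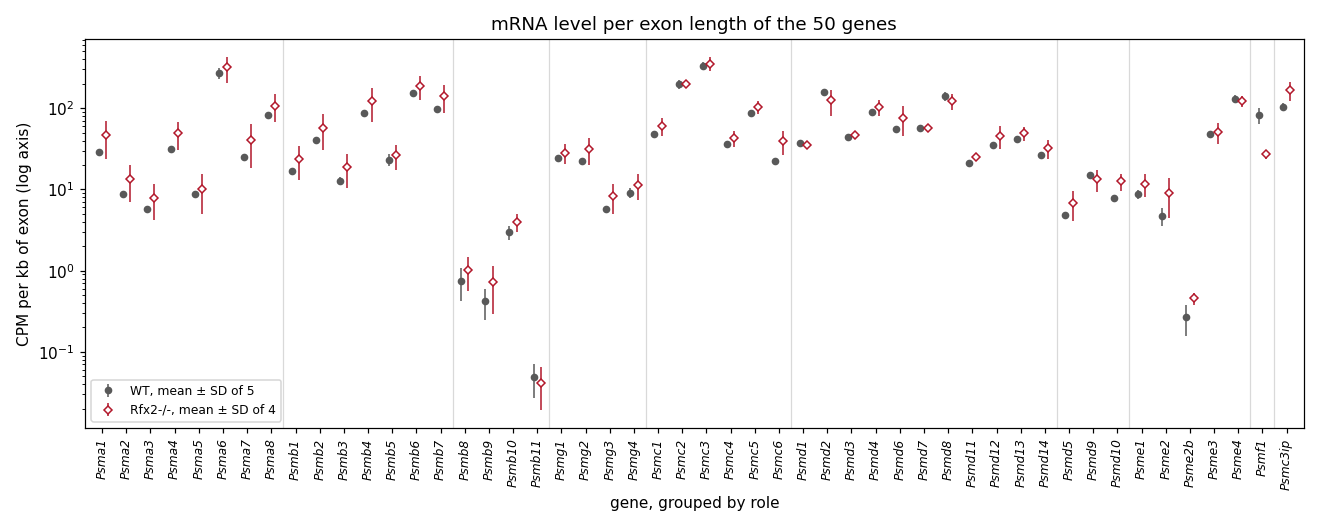
Level of the 50 genes in CPM per kb of exon (log axis), mean ± SD, for 5 WT (grey circles) and 4 Rfx2-/- libraries (open red diamonds), with grey lines between the roles. Psmc3 is the highest at 334 in WT, the inducible or thymic beta subunits Psmb8, Psmb9 and Psmb11 lie below 1 in WT, and Psmf1 is the gene whose mean drops furthest, from 81.8 to 27.1.

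Psmf1 encodes the proteasome inhibitor PI31, which binds the 20S core and also links proteasomes to the dynein motor. The gene (ENSMUSG00000032869) lies on the minus strand of chr2:151715812-151744186 (GRCm38), shared no 50-base stretch with another gene and overlapped no other gene's exons. Its level in the 5 WT libraries was 359.7, 367, 207, 319 and 382 CPM. In the 4 Rfx2-/- libraries it was 112, 126.4, 101.3 and 93.0 CPM. All knockout libraries were thus below all WT libraries, and Rfx2-/- replicate 2 was the highest of the knockout libraries. The means were 327 ± 71.0 CPM (SD, n = 5) and 108 ± 14.4 CPM (SD, n = 4), and the log2 fold change was -1.60 (SE 0.19), at which edgeR gave an adjusted p of 1.62e-04. It was -1.68 without Rfx2-/- replicate 2, and it ranged from -1.80 to -1.45 over all alternatives, with adjusted p between 5.91e-14 (DESeq2) and 0.00149 (edgeR).

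The low WT library for Psmf1, replicate 3, was also low for genes listed as markers of elongating spermatids. Those cells form after the stage at which Rfx2-/- germ cells stop. The study places the Tnp1 and Tnp2 mRNAs already in late round spermatids, so levels of such mRNAs do not count elongating cells. The summed level of 9 such markers, among them the protamines Prm1 and Prm2, was 8447 CPM in WT replicate 3 and 12985 to 17981 CPM in the other WT libraries, against 6689 to 10724 CPM in Rfx2-/-. All 9 were below 0 on the log2 scale, 5 of them fell (Prm1, Prm2, Tnp1, Odf1 and Akap4), the median was -0.77, and none was at 0 in any library. The calls of Prm1, Prm2, Tnp1 and Odf1 were lost in some alternatives, and that of Akap4 was kept in all. Unlike the call of Tnp1 here, the study reports no reduction of the Tnp1 and Tnp2 mRNAs in these mice. WT replicate 3 thus lay inside the knockout range for the summed markers, and at 207 CPM it lay above every knockout library for Psmf1. Without WT replicate 3 the log2 fold change of Psmf1 was -1.68, and without both WT replicate 3 and Rfx2-/- replicate 2 it was -1.80. How far the loss of elongating spermatids accounts for the fall was not tested.

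The promoter of Psmf1 is shown because this gene carries the one large change among the members. The 300-base window runs from 250 bases before the RefSeq start to 50 bases after it (GRCm38.p6, chr2:151741261-151741560, minus strand), and this start lies inside the longer GENCODE gene. It was searched for the X-box, the motif bound by RFX factors, taken as the arms GTTGCC and GGCAAC with 2 free bases between them, a motif that reads the same on both strands. The best of its positions differed at 5 of the 12 defined bases, so that at the 3 mismatches allowed no match was found in these letters.
Psmf1: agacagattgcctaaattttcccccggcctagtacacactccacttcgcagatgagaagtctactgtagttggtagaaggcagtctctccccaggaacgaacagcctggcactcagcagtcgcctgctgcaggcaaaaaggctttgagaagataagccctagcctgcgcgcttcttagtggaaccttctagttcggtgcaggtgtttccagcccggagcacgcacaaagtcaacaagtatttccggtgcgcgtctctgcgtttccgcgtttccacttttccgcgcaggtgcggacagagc

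The alpha ring of the 20S core had 8 members tested. None passed the adjusted p of 0.05 in edgeR, 4 were under an unadjusted p of 0.05, and DESeq2 called 1, Psma4. All 8 log2 fold changes were above 0, from 0.22 (Psma5) to 0.70 (Psma1), and their median of 0.56 was 0.17 without Rfx2-/- replicate 2.

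Psma8 (ENSMUSG00000036743, on the plus strand of chr18:14706151-14762301) is expressed in meiotic and later germ cells, and mice need it for meiosis. Its level in WT was 132, 132, 159, 139 and 136 CPM, and in Rfx2-/- it was 134, 284, 146 and 164 CPM. The value of 284 belonged to Rfx2-/- replicate 2, replicates 1 and 3 lay within the WT range, and replicate 4 lay just above it. The means were 139.6 ± 11.04 CPM (SD, n = 5) and 182 ± 69.2 CPM (SD, n = 4), with a log2 fold change of 0.38 (SE 0.21, 95% interval -0.067 to 0.84) and an edgeR adjusted p of 0.247. Without Rfx2-/- replicate 2 the log2 fold change was 0.086, with an edgeR adjusted p of 0.657.

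Psma7 (ENSMUSG00000027566, minus strand of chr2:180036374-180042433), the subunit that holds the same position in other tissues, was at 32.6, 28.5, 32.4, 26.7 and 28.5 CPM in WT. In Rfx2-/- it was at 29.2, 87.9, 39.5 and 36.4 CPM, so replicate 2 was again far above the rest and replicate 1 was within the WT range. The log2 fold change was 0.70 (SE 0.27, 95% interval 0.10 to 1.29) with an edgeR adjusted p of 0.125, and it was 0.23 without Rfx2-/- replicate 2 (adjusted p 0.241). Without Rfx2-/- replicate 1 it was 0.91, and Psma7 then passed with an edgeR adjusted p of 0.0323.

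Per length of exon, Psma8 was the more abundant of this pair in every library. It made up 73.8% to 78.4% of the sum of Psma7 and Psma8 in the WT libraries and 69.3% to 76.3% in the Rfx2-/- libraries. The log2 ratio of Psma8 to Psma7 per length was 1.69 ± 0.13 (SD, n = 5) in WT and 1.46 ± 0.24 (SD, n = 4) in Rfx2-/-. The difference of -0.24 had a two-sided exact permutation p of 0.0952, which was 0.381 after Benjamini-Hochberg adjustment over the 4 ratios tested, and the smallest p this design allows is 0.0159.

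**Figure D2:**
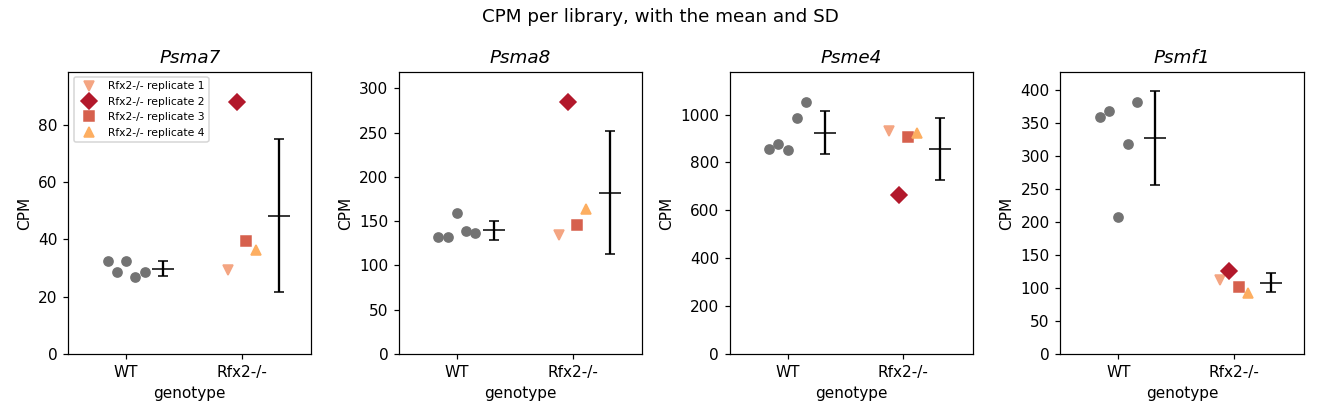
CPM of Psma7, Psma8, Psme4 and Psmf1 in each library, WT as grey circles and Rfx2-/- in red and orange by replicate, with the mean and SD beside the points. Rfx2-/- replicate 2 (dark diamond) is the highest knockout library for Psma7 (87.9) and Psma8 (284) and the lowest for Psme4 (664), while for Psmf1 all knockout libraries lie between 93.0 and 126.4 and all WT libraries above.

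The remaining alpha subunits ranged in WT from 5.66 CPM per kb (Psma3) to 269 CPM per kb (Psma6), so mRNAs whose proteins occupy the ring in equal numbers differed widely. The level of Psma3 is uncertain, as 22.0% of its 50-base stretches occur in other genes and its merged exons span 2846 bases. Psma1 was the most even gene between WT libraries, at 34.5 to 36.2 CPM, and in Rfx2-/- it was at 34.0, 99.6, 47.0 and 50.8 CPM. Its log2 fold change was 0.70 (edgeR adjusted p 0.0955, SE 0.25), and 0.30 without Rfx2-/- replicate 2. Psma4 did not overlap between genotypes, with 41.6 to 50.9 CPM in WT and 52.1, 113, 56.2 and 70.1 CPM in Rfx2-/-, at a log2 fold change of 0.64 and an edgeR adjusted p of 0.0706. Psma5 was the lowest in the group by fold change, 0.22, and moved to -0.20 without Rfx2-/- replicate 2. A share of 55.4% of its exonic 50-base stretches also occurs in other genes, so that its counts are uncertain.

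The constitutive beta subunits include Psmb5, Psmb6 and Psmb7, which hold the chymotrypsin-like, caspase-like and trypsin-like active sites. None of the 7 passed in edgeR or in DESeq2, and 1 had an unadjusted p under 0.05. Their median log2 fold change was 0.50, and 0.13 without Rfx2-/- replicate 2. Psmb7 was at 106 to 125 CPM in WT and at 109, 248, 127 and 164 CPM in Rfx2-/-, with a log2 fold change of 0.51 (edgeR adjusted p 0.141, SE 0.21). Psmb6 was at 113 to 140.0 CPM in WT and at 102, 211, 124 and 160.0 CPM in Rfx2-/-, at a log2 fold change of 0.27 (edgeR adjusted p 0.375). Psmb5 was at 17.8 to 27.0 CPM in WT and at 17.3, 35.2, 17.99 and 24.3 CPM in Rfx2-/-, and its log2 fold change of 0.18 moved to -0.079 without replicate 2. Psmb5 shares 54.1% of its 50-base stretches with other genes. Psmb7 shares 28.1%, with Nek6, whose exons overlap its own on the opposite strand. The counts of both are thus uncertain. Psmb3, a structural subunit, had the highest log2 fold change of the group, 0.53 (edgeR adjusted p 0.184), but shares 55.8% of its 50-base stretches with other genes.

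Under interferon, Psmb8, Psmb9 and Psmb10 replace Psmb5, Psmb6 and Psmb7 in the immunoproteasome. In these testes they were scarce. Psmb8 was at 0.746 ± 0.323 CPM per kb in WT (SD, n = 5) against 23.3 ± 4.06 CPM per kb for Psmb5, Psmb9 at 0.422 against 155 for Psmb6, and Psmb10 at 2.97 against 97.9 for Psmb7. None of the 3 passed in edgeR or in DESeq2, and none had an unadjusted p under 0.05. Their log2 fold changes were 0.42, 0.74 and 0.42 with adjusted p from 0.225 to 0.490 in edgeR. The log2 ratios of inducible to constitutive subunit differed between genotypes by 0.14 for Psmb8 to Psmb5 (exact permutation p = 0.556), 0.14 for Psmb9 to Psmb6 (exact permutation p = 0.603) and -0.076 for Psmb10 to Psmb7 (exact permutation p = 0.603). The pseudocount of 0.5 CPM per kb in these ratios was above the WT level of Psmb9 and near that of Psmb8, which draws both differences towards 0. With a pseudocount of 0.1 they were 0.26 for Psmb8 to Psmb5 (exact permutation p = 0.444) and 0.36 for Psmb9 to Psmb6 (exact permutation p = 0.476), so no difference was detectable at these counts. The counts of Psmb9 are uncertain, since 212 bases of its exons lie opposite those of Tap1 and the use of strand in counting is not stated. Those of Psmb5 and Psmb7, to which Psmb8 and Psmb10 are compared here, are uncertain through their shared stretches. Psmb11, which belongs to the thymus, had too few counts to test, with a mean of 0.235 CPM in WT and 0.201 CPM in Rfx2-/-, close to the 0.0996 to 0.234 CPM that 3 counts are worth in these libraries.

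The 4 chaperones that assemble the alpha ring, Psmg1 to Psmg4, did not pass in edgeR or in DESeq2, and 2 had an unadjusted p under 0.05. Their log2 fold changes ran from 0.23 (Psmg1) to 0.53 (Psmg3), with a median of 0.39 that was 0.12 without Rfx2-/- replicate 2. Psmg1 was at 24.5 to 26.8 CPM in WT and at 21.9, 41.1, 27.6 and 27.4 CPM in Rfx2-/-. Psmg3 was at 4.51 to 5.52 CPM in WT and at 4.92, 11.6, 6.61 and 6.15 CPM in Rfx2-/-.

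Of the 6 ATPases of the 19S particle, Psmc6 rose and the other five did not pass. Psmc6 (Rpt4) was at 46.3, 55.3, 49.2, 52.4 and 44.6 CPM in WT. In Rfx2-/- it was at 70.4, 132, 68.8 and 82.9 CPM, so that all knockout libraries were above all WT libraries, with replicate 2 the highest. The means were 49.6 ± 4.35 CPM (SD, n = 5) and 88.6 ± 29.8 CPM (SD, n = 4), at a log2 fold change of 0.84 (SE 0.19) and an edgeR adjusted p of 0.0143. Without Rfx2-/- replicate 2 the log2 fold change was 0.58 (SE 0.11) and the edgeR adjusted p 0.00213, and Psmc6 passed in every alternative run. At the other end of the group stood Psmc2 (Rpt1), at 301 to 422 CPM in WT and 323, 366, 339 and 399 CPM in Rfx2-/-, a log2 fold change of 0.0081 (SE 0.14). The ATPases form one ring, and their mRNA in WT ranged from 22.2 CPM per kb for Psmc6, the lowest, to 334 CPM per kb for Psmc3, the highest.

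None of the 11 non-ATPase subunits of the 19S particle passed in edgeR or in DESeq2, and none had an unadjusted p under 0.05. Their median log2 fold change was 0.20, and 0.042 without Rfx2-/- replicate 2. The highest value was 0.47 for Psmd6 (edgeR adjusted p 0.191), at 72.6 to 85.9 CPM in WT and 74.0, 169, 79.8 and 101.5 CPM in Rfx2-/-. The lowest was -0.33 for Psmd2 (Rpn1), the large subunit on which ubiquitin shuttles dock, with an edgeR adjusted p of 0.378. Psmd2 was at 444 to 487 CPM in WT and at 455, 175, 433 and 419.7 CPM in Rfx2-/-. Replicate 2 was far below the rest, replicates 3 and 4 lay just below the WT range, and without replicate 2 the log2 fold change was -0.099. The counts of Psmd2 are uncertain, as 25.6% of its 50-base stretches occur in other genes. Psmd7 was the least changed in value, with 88.8 to 96.6 CPM in WT, 87.6 to 96.1 CPM in Rfx2-/- and a log2 fold change of -0.0020 (SE 0.11).

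The members that the study lists with an RFX2-bound promoter are Psma5, Psmd8, Psmd13 and Psmc3ip. That binding was measured in dissociated germ cells of younger WT mice, over promoter regions wider than the windows searched here. Psmd8 (Rpn12), which completes the lid, was at 293, 298, 269.9, 315 and 370.4 CPM in WT and at 202, 339, 239.9 and 296 CPM in Rfx2-/-. The genotypes overlapped, and the log2 fold change was -0.20 (edgeR adjusted p 0.470, SE 0.17). It was -0.33 without Rfx2-/- replicate 2 (edgeR adjusted p 0.147). Psmd13 (Rpn9), a scaffold subunit of the lid, was at 98.9 to 109.9 CPM in WT and at 98.3, 145, 106 and 132 CPM in Rfx2-/-, with a log2 fold change of 0.22 (edgeR adjusted p 0.327, SE 0.14). Without Rfx2-/- replicate 2 it was 0.12 (edgeR adjusted p 0.532). Exons of Psmd13 overlap those of Sirt3 on the opposite strand over 342 bases. The promoters of Psmd8 and Psmd13 are shown because RFX2 binding was listed there and both hold an X-box match at the 3 mismatches allowed, marked in capitals. The same holds for Psmc3ip, shown with its values further on, while the best position in the Psma5 window had 4 mismatches. The match begins 80 bases before the start of Psmd8 (chr7:29180624-29180923, minus strand, RefSeq on GRCm38.p6) and 74 bases before that of Psmd13 (chr7:140882144-140882443, plus strand).
Psmd8: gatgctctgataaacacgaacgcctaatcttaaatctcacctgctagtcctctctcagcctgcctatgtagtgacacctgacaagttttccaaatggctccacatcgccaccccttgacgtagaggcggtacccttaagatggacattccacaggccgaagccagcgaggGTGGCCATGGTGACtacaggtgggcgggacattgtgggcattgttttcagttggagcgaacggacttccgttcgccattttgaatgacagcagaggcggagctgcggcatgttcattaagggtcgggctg
Psmd13: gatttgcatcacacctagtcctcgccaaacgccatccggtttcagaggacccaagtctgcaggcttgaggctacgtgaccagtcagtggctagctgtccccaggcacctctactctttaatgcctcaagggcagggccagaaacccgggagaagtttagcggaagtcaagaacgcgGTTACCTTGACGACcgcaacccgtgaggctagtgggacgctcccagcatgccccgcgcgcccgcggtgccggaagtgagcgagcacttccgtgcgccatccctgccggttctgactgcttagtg

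Such matches were not frequent among the members. A RefSeq window was at hand for 42 of the 50 genes, 45 windows in all, and 7 of these held an X-box match (15.6%), against 14.05% of 32851 windows of all genes. Besides Psmd8, Psmd13 and Psmc3ip, a match lay in windows of Psmb5, Psmc2, Psme2b and Psmd10, of which Psmd10 was called. The windows were also searched on both strands for TGANNNNGC, the core of the antioxidant element bound by Nfe2l1, the factor known for raising proteasome genes when proteasomes are inhibited. It was present in 26 of the 45 windows (57.8%), against 41.3% of all windows. Matches of the 2 motifs were allowed to overlap, and a match describes the letters only.

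Of the 3 chaperones that assemble the 19S base, Psmd10 rose. Psmd10 (gankyrin), which holds the ATPase Psmc4 during assembly, was at 11.5, 10.996, 11.4, 11.1 and 12.6 CPM in WT and at 13.4, 23.5, 17.4 and 19.3 CPM in Rfx2-/-. The genotypes did not overlap, the log2 fold change was 0.67 (SE 0.17) and the edgeR adjusted p was 0.0231. The log2 fold change was 0.53 without Rfx2-/- replicate 2 (edgeR adjusted p 0.0193). The call was lost, at edgeR adjusted p of up to 0.0666, on leaving out WT replicate 1, 2 or 4 or Rfx2-/- replicate 4. Psmd9, the chaperone that pairs Psmc6 with its neighbour, had a log2 fold change of -0.17 (edgeR adjusted p 0.575), with 34.8 to 43.0 CPM in WT and 25.6, 49.9, 29.0 and 34.0 CPM in Rfx2-/-. The Rfx2-/- libraries other than replicate 2 lay below all WT libraries, and without it Psmd9 fell by 0.40 on the log2 scale with an edgeR adjusted p of 0.0394.

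Among the activators, Psme4 (ENSMUSG00000040850, plus strand of chr11:30771726-30880361) had the highest level in both genotypes. It was at 855, 877, 851, 986 and 1052 CPM in WT and at 931, 664, 908 and 925 CPM in Rfx2-/-. Apart from replicate 2 the knockout libraries lay within the WT range. The log2 fold change was -0.11 (SE 0.15, 95% interval -0.44 to 0.22) with an edgeR adjusted p of 0.671, and -0.0038 without Rfx2-/- replicate 2. Per length, Psme4 made up 65.8% to 71.2% of the summed Psme1 to Psme4 in WT and 66.6% to 70.6% in Rfx2-/- replicates 1, 3 and 4, and 47.0% in replicate 2. Its 7022 bases of exon make it the longest member.

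The other activators, Psme1 and Psme2, which form the interferon-inducible PA28 ring, and the nuclear Psme3, did not pass in edgeR, 1 of the 4 activators tested had an unadjusted p under 0.05, and DESeq2 called 1, Psme2. Psme2 had the highest log2 fold change of all members, 0.92 (edgeR adjusted p 0.0723, SE 0.30), with 3.51 to 6.12 CPM in WT and 5.75, 15.6, 6.41 and 7.98 CPM in Rfx2-/-. It was 0.51 without Rfx2-/- replicate 2. Its reads are uncertain, as 54.9% of its 50-base stretches occur in Psme2b and other copies. Psme2b was untested, with a mean of 0.223 CPM in WT and 0.383 CPM in Rfx2-/-.

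Psmc3ip, the member that is no proteasome gene, rose. It was at 139.7, 150.1, 111, 142 and 128 CPM in WT and at 202, 281, 145 and 228 CPM in Rfx2-/-, so Rfx2-/- replicate 3 overlapped the WT range. The log2 fold change was 0.68 (edgeR adjusted p 0.0347, SE 0.18), and 0.52 without Rfx2-/- replicate 2 (edgeR adjusted p 0.0291). The edgeR adjusted p went up to 0.0868 on leaving out single libraries, and the call was lost without any one WT library or without Rfx2-/- replicate 4. Its exons overlap those of Mlx on the other strand over 385 bases. Markers of meiotic prophase, the stage at which HOP2 acts, had a summed level of 678 to 826 CPM in WT and of 839 to 2025 CPM in Rfx2-/-, the highest in replicate 2. All 8 were above 0 with a median log2 fold change of 0.62, none passed in edgeR, 5 had an unadjusted p under 0.05, and DESeq2 called 1. None of these markers was at 0 in all libraries, and their part in the values of Psmc3ip and of the other members was not tested. The promoter of Psmc3ip (chr11:101095386-101095685, minus strand, RefSeq on GRCm38.p6) is shown because it was listed as bound by RFX2 and is the one listed member that was called. Its X-box match, with 3 mismatches and in capitals, begins 6 bases after the start.
Psmc3ip: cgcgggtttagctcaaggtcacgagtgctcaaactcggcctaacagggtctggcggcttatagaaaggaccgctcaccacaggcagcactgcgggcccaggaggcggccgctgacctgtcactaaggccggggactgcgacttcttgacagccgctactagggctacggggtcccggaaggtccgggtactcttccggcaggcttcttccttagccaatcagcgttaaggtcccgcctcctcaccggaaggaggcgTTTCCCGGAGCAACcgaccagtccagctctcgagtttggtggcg

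**Figure D3:**
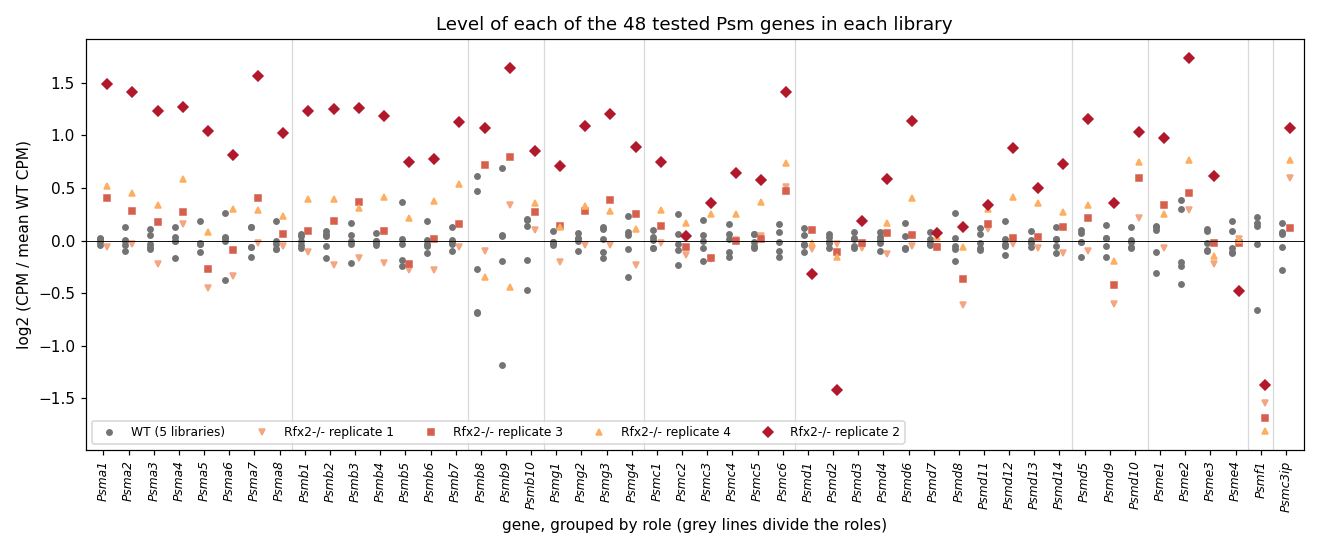
CPM of each of the 48 tested genes in each library, on the log2 scale relative to the mean of the 5 WT libraries (grey circles), with the 4 Rfx2-/- libraries in red and orange by replicate. Rfx2-/- replicate 2 (dark diamonds) is the highest of the knockout libraries in 43 genes and stands apart below the others in Psmd2 and Psme4, and the knockout libraries lie below all WT libraries together only in Psmf1.

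The knockout libraries stood in a like order across most members. Rfx2-/- replicate 2 was the highest of the 4 knockout libraries in 43 of 48 members (89.6%), whereas it was the highest in 39.4% of all genes tested. It exceeded every WT library in 41 members. Rfx2-/- replicate 1 was the lowest of the knockout libraries in 37 members and exceeded every WT library in 4, replicate 3 did so in 24 and replicate 4 in 34. The median coefficient of variation of a member was 7.64% between WT libraries, below the 12.8% of all genes, and 33.1% between Rfx2-/- libraries, above the 26.2% of all genes. It was 15.5% between Rfx2-/- replicates 1, 3 and 4.

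The excess of the members in replicate 2 was present in the 3 classes of exon length up to 5000 bases. For members with under 1500 bases of exon (n = 23), the level in Rfx2-/- replicate 2 was 1.85 times the mean of the other knockout libraries as a median, against 1.62 for all genes of that length. For 1500 to 2500 bases (n = 13) it was 1.45 against 1.27. For 2500 to 5000 bases (n = 11) it was 1.67 for members and 0.916 for all genes. Lengths were not matched within a class. They are those of the merged exons of all protein coding isoforms, which can exceed the length of the mRNA expressed. Psma2, Psma3 and Psmb1 are among the members of the class of 2500 to 5000 bases by this measure. The removal of the length trend below used the same lengths, and how far this bears on the values was not tested. The one longer member, Psme4, was at 0.721 times the mean of the others, against 0.613 for all genes of over 5000 bases. After the trend with length had been removed from each library the members' median log2 fold change was 0.21. In that fit 5 of 48 members passed (10.4%), Psma4 in addition to the 4. Of all 15613 genes 1502 were lower and 767 higher at the same limit. The summed level of the 49 proteasome genes was 5154 to 6123 CPM in WT and 4968, 6979, 5276 and 6024 CPM in Rfx2-/-, so that all knockout libraries but replicate 2 and replicate 1 lay within the WT range, with replicate 1 below it.

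The number of calls depended on single libraries. Without Rfx2-/- replicate 1, which was the lowest in most members, 16 of 48 passed in edgeR, 15 of them higher, against 8.86% of all genes that were higher in the same fit. Without Rfx2-/- replicate 2, 5 members passed, 3 higher (4.93% of all genes) and 2 lower (9.77%), the latter Psmf1 and Psmd9. Psmf1 and Psmc6 were the members called in every one of these fits. Scaling by total counts alone moved the median of all genes from 0.032 to 0.16 and that of the members to 0.48. With it 6 of 48 members passed (12.5%), 1 lower and 5 higher. Of all 15613 genes 959 were lower and 1183 higher in that fit.

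**Figure D4:**
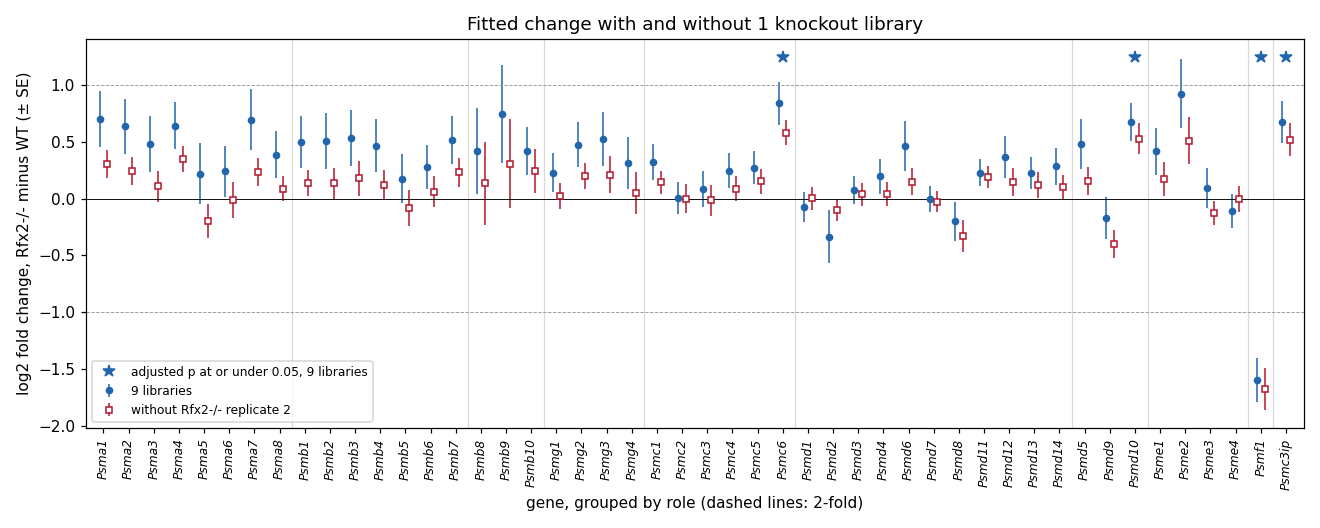
Log2 fold change (Rfx2-/- minus WT, ± SE) of the 48 tested genes by role, from all 9 libraries (blue circles) and without Rfx2-/- replicate 2 (open red squares), with stars at the 4 genes that passed an edgeR adjusted p of 0.05 over 9 libraries. The red squares lie nearer to 0 for most alpha and beta subunits, and Psmf1 is at -1.60 and -1.68.

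Other genes of the pathway were taken from a list of partners of the proteasome. Of 33 tested, 3 fell and 1 rose (12.1% in all), against 10.8% of all genes, 7.31% lower and 3.48% higher. Their median log2 fold change was -0.020. Ddi1 and Ubqlnl fell, both ubiquitin shuttles, the proteins that carry tagged substrates to the proteasome. Ddi1 was at 155, 167, 110.4, 175 and 214 CPM in WT and at 64.8, 114, 77.3 and 73.2 CPM in Rfx2-/-, with a log2 fold change of -0.998 (edgeR adjusted p 0.00990), a call lost once the trend with exon length was removed (edgeR adjusted p 0.0963). Ubqlnl had a log2 fold change of -0.98 (edgeR adjusted p 0.0126), with 130 to 228 CPM in WT and 110, 82.6, 134 and 72.0 CPM in Rfx2-/-. As with Psmf1, WT replicate 3 was the lowest WT library for Ddi1 and for Ubqlnl, and for both it lay inside the knockout range.

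Ufd1, a partner of the segregase that extracts tagged proteins from complexes, rose by 0.53 on the log2 scale (edgeR adjusted p 0.0448), from 76.5 to 102 CPM in WT to 109, 165, 121 and 128 CPM in Rfx2-/-. The call was lost, at an edgeR adjusted p of up to 0.115, without any one WT library or without Rfx2-/- replicate 4. None of the 4 other core and assembly genes tested, which include Pomp and Sem1, passed in edgeR or in DESeq2 or had an unadjusted p under 0.05. None of the 7 deubiquitinases, ligases and adaptors on the proteasome passed in either tool, and 2 had an unadjusted p under 0.05. The regulators of proteasome genes, Nfe2l1, Nfe2l2 and Ngly1, had no call in either tool and no unadjusted p under 0.05.

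Of 10 genes of antigen processing and the interferon response, the setting in which Psmb8 to Psmb10, Psme1 and Psme2 are induced, B2m and H2-K1 rose. B2m, the light chain of class I molecules, was at 11.7 to 20.7 CPM in WT and at 18.1, 78.4, 36.1 and 30.6 CPM in Rfx2-/- (log2 fold change 1.27, edgeR adjusted p 0.0375), and the call was lost, at an edgeR adjusted p of up to 0.0951, without any one library other than Rfx2-/- replicate 1. H2-K1, a heavy chain, was at 49.5 to 62.3 CPM in WT and at 70.6, 162, 97.7 and 90.7 CPM in Rfx2-/- (log2 fold change 0.88, edgeR adjusted p 0.0179), and its call was lost without WT replicate 2 or 5 (edgeR adjusted p up to 0.0551). The summed level of 8 macrophage markers was 109 to 142 CPM in WT and 113 to 155 CPM in Rfx2-/-. That of 7 lymphocyte markers was 4.60 to 7.01 CPM in WT and 6.02 to 8.37 CPM in Rfx2-/-, with Cd8a at 0 in all libraries.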

How the data were processed

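Total RNA of decapsulated testes was sequenced by the authors as TruSeq libraries, 1 per mouse. The deposited values are raw counts per gene. Per the labels and the study's methods, single reads were processed with CASAVA 1.8.2, aligned to GRCm38 with STAR 2.4, multi-mapping reads were discarded, and the authors counted with featureCounts 1.4.6 over merged exons of protein coding isoforms, leaving out reads over exons of different genes. Strand use in counting is not given in the sources used here. Copies of a gene therefore lose counts.

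Of 23074 gene IDs, 96.6% matched GENCODE M21, the source of symbols, exon lengths and shared 50-base stretches. Promoters were RefSeq windows on GRCm38.p6. Counts were tested with edgeR 4.0.16 in R 4.3.3 (TMM, filterByExpr, robust quasi-likelihood F test, genotype only, Benjamini-Hochberg over 15613 genes). On simulated data the same fit recovered 5% of 100 genes changed 1.5-fold and 52% of 100 changed 2-fold. A member that did not pass may thus still differ by such amounts. SE is the log2 fold change divided by the root of F. Ratios were tested by exact two-sided permutation (scipy 1.17.1, pseudocount 0.5). Alternatives were DESeq2 1.42.0, other scalings and filters, a length correction and leaving out libraries. Genes were named by rule: Psma8, Psma7, Psme4, Psmf1, Psmb5 to Psmb10, members passing 0.05, the extremes of each role, members listed with a promoter peak and the untested ones, and up to 6 pathway genes, of which one is not reported here. Psma4, Psma3, Psma6, Psmc3 and Psmd7 were named after their values were seen. Members and lists were chosen with earlier results of these data known. No 2 libraries of a genotype agreed within sampling noise (lowest chi-square per gene 4.32). The labels do not say how animals relate, so p-values measure the spread between these animals, and WT and Rfx2-/- animals may share litters.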

Additional observations from a re-analysis of the deposited data

Results flagged for a closer look

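Among 62 groups of 4 or 5 values of the named members, 5 had a highest or lowest library far from the rest by Dixon's test at 95%, where chance gives about 1 in 20, or 3.1 of 62. Rfx2-/- replicate 2 was the lowest library for Psme4 at 664.2 CPM, with 907.9 to 931.1 CPM in its group otherwise, and for Psmd2 at 174.8 CPM, with 419.7 to 455.5 CPM in the others. WT replicate 3 was the highest for Psma8 at 158.6 CPM, with 131.9 to 138.9 CPM in the other WT libraries. WT replicate 5 was the highest for Psma5 at 12.32 CPM, with 10.03 to 10.64 CPM in the others, and WT replicate 2 for Psmg1 at 26.79 CPM, with 24.48 to 24.85 CPM in the others.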

How the results depend on the processing

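No paired analysis was possible because the labels do not give the litter of an animal. Per the study, littermates of the same age were taken where this could be done. The count of members passing an edgeR adjusted p of 0.05, 4 in all libraries, ranged from 2 (without WT replicate 1, 2 or 4, or without Rfx2-/- replicate 4) to 16 (without Rfx2-/- replicate 1) when single libraries were left out, and was 6 with DESeq2. That past the stricter limits was 1 in every alternative. Pathway genes passing, 4 in all libraries, ranged from 2 (without WT replicate 1, 2, 4 or 5, or Rfx2-/- replicate 4) to 6 (without Rfx2-/- replicate 1), and were 7 with Rfx2-/- replicate 2 and WT replicate 3 both left out, an alternative chosen after the data had been seen. The count for the antigen list, 2, ranged from 0 to 2.

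Over 398 values of the named members under the alternatives, 364 kept their direction and their side of the threshold. The direction turned in 4 genes with log2 fold changes near 0. Psma5 went from 0.22 to -0.032 with the length trend removed and -0.21 with 7 libraries, and to a range of -0.20 to 0.43 when single libraries were left out. Psmb5 went from 0.18 to -0.069 with the length trend removed and -0.12 with 7 libraries, and to between -0.079 and 0.34 when single libraries were left out. Psmc2 went from 0.0081 to -0.10 with the length trend removed and -0.057 with 7 libraries, and to between -0.018 and 0.085 when single libraries were left out. Psme4 went from -0.11 to 0.026 with total counts only and 0.029 with the length trend removed. The log2 ratio differences of inducible to constitutive subunits turned when single libraries were left out, with ranges of -0.046 to 0.32 for Psmb8 to Psmb5, -0.0069 to 0.37 for Psmb9 to Psmb6 and -0.17 to 0.016 for Psmb10 to Psmb7. That of Psma8 to Psma7 ranged from -0.31 to -0.14. The cause of these turns was not tested. The fits on 9 libraries had wide intervals for members at log2 fold changes under 1, as that of Psma8 shows.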
